A study of Mus musculus with 20 samples.

Results

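The mitochondrial respiratory chain was followed in cultured mouse colon fibroblasts through the genes of its 5 complexes. They were taken by symbol: Nduf, Sdha to Sdhd, Uqcr, Cox4 to Cox8 and Atp5, plus the 13 protein-coding genes of the mitochondrial genome. A gene was kept where its mean was at least 1 CPM (counts-per-million of a library's deposited total) over the 20 libraries. This gave 98 of the 47729 gene identifiers, 7 encoded in mitochondrial DNA and 91 in the nucleus. The nuclear genes were 76 structural subunits (37 of complex I, 4 of complex II, 8 of complex III, 11 of complex IV and 16 of complex V), 12 assembly factors (8 of complex I and 4 of complex II) and 3 isoforms known from other tissues or states (Ndufa4l2, Cox6a2 and Cox6b2). All 98 passed the expression filter of the test. Just inside the threshold lay Cox6b2 (1.07 CPM), Atp5g2 (1.17 CPM), Cox6a2 (1.65 CPM) and Ndufa4l2 (1.73 CPM). Just outside it lay Cox7a1 (0.375 CPM), Atp5l (0.226 CPM) and Cox4i2 (0.149 CPM).

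By its title, the study asked how fibroblasts with an inflammatory state contribute when rectal cancer resists treatment given before surgery. Polyadenylated RNA was sequenced from C57BL6/J colon fibroblasts in 5 groups of 4 libraries, numbered I to IV by the labels. All were plated as flat cultures. For 24 h, 1 group received APTKA organoid medium labelled as irradiated with 5 fractions of 2 Gy, 1 received APTKA medium, 1 received APTK medium labelled as irradiated in the same way, and 1 received APTK medium, while the last was left untreated and is titled wild-type. APTKA and APTK are organoid lines whose names the labels do not expand, and the irradiated party, organoids or fibroblasts, is not stated. No group had irradiation without organoid medium, and none received organoid medium that no organoids had conditioned. Nothing in the labels states that the 4 libraries of a group derive from different animals or cultures. The p-values therefore reflect variation among libraries, part or all of which may be technical.

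Complex I oxidises NADH and complex II succinate, complex III passes the electrons to cytochrome c, complex IV hands them to oxygen, and complex V, the ATP synthase, uses the resulting proton gradient. Complex II is built from nuclear genes alone, whereas the other complexes join nuclear subunits with subunits made inside mitochondria. The mitochondrial genes are transcribed by a polymerase of their own, Polrmt, as long precursors that are cut into single messages. In fibroblasts, low oxygen is known to switch some subunits to alternative isoforms and to turn metabolism towards lactate.

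The libraries held 17259557 to 31634843 counts. Irradiated APTK I and II had the lowest totals (19619075 and 17259557 counts) and high mitochondrial counts, so the comparisons with irradiated APTK medium are also given without them. Irradiated APTK III stood apart the other way and was kept in that check. Its mitochondrial members took 0.191% of the counts, against 0.285 to 0.33% with APTK medium. The 10 fibroblast markers summed to 36627 to 40465 CPM with APTKA medium, 55313 to 61379 with APTK medium and 63685 to 71639 in untreated fibroblasts. Epcam and Ptprc, which define epithelium and leukocytes, reached at most 0.105 and 0.195 CPM in any library. Of the fibroblast markers, 9 fell and 0 rose with APTKA medium, against 1 that fell and 3 that rose with APTK medium, each relative to untreated fibroblasts. The 7 pericyte and smooth muscle markers summed to 416 to 456 CPM with APTKA medium, 648 to 769 with APTK medium and 617 to 712 in untreated fibroblasts. Of the markers of other cells, 9 of 10 epithelial, 5 of 7 leukocyte, 5 of 6 endothelial, 4 of 4 mesothelial, 3 of 4 glial and 8 of 9 brown fat and muscle markers stayed under 1 CPM in every library, with Cd3e and Myod1 at 0. The part of these shifts in the results below was not tested, and in such bulk RNA fewer cells of a type cannot be told apart from less RNA per cell.

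Of the 13 mitochondrial protein genes, 6 had 0 counts in all 20 libraries. These were mt-Co2, mt-Atp8, mt-Atp6, mt-Co3, mt-Nd3 and mt-Nd4l, which lie next to each other between mt-Co1 and mt-Nd4. For 5 of them, 98 to 100% of the 50-base stretches also occurred in transcripts of other annotated genes, mainly copies on chromosome 1, whereas mt-Atp8 shared none. The same share was 62.2% in mt-Nd4 and 51.1% in mt-Co1, so the counts of these 2 are uncertain. It was 8.19% in mt-Nd2, 7.61% in mt-Nd5 and 0% in mt-Nd1, mt-Nd6 and mt-Cytb. Complex V is therefore seen here through its nuclear genes alone, and complex IV has only mt-Co1 from the mitochondrial genome. mt-Co1, the catalytic subunit that reduces oxygen, made up 76.5 to 85.3% of the mitochondrial member counts, and sums over the 7 genes mostly follow it.

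**Figure D1:**
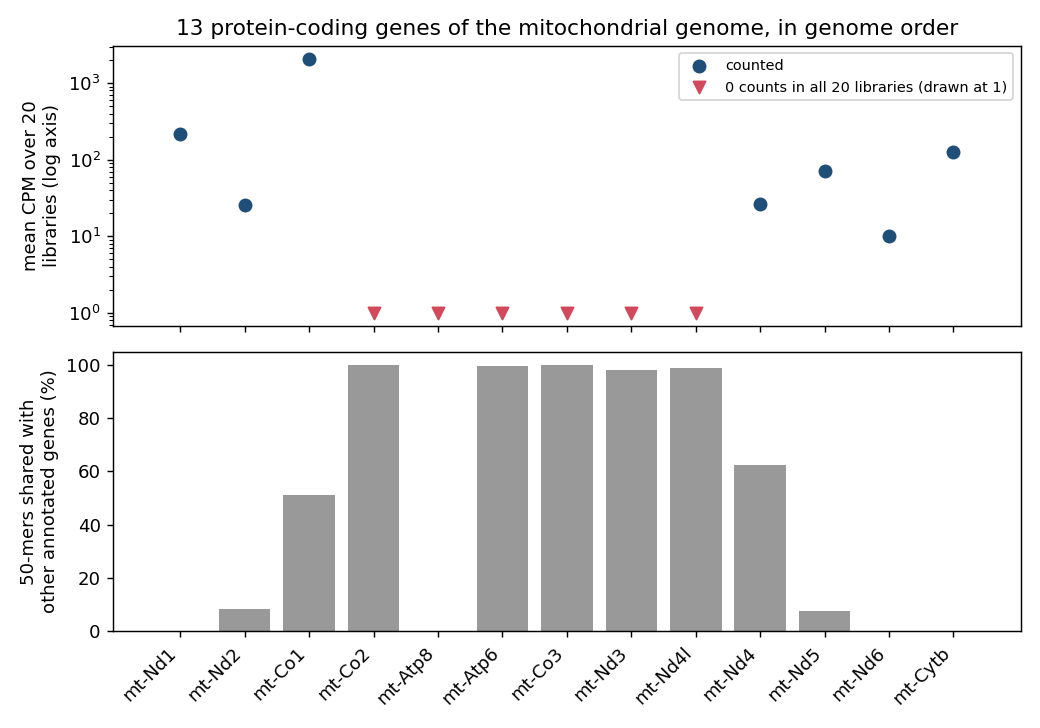
The 13 mitochondrial protein genes from left to right in genome order, with the mean CPM over the 20 libraries on a log axis (top) and the percentage of their 50-base stretches found in other annotated genes (bottom). Triangles, drawn at 1 because 0 has no place on a log axis, mark the 6 genes with 0 counts, and of these mt-Atp8 alone shares none.

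Relative to the summed nuclear subunits, the summed mitochondrial counts were lower with APTKA medium and higher with APTK medium than in untreated fibroblasts. Most of the mitochondrial sum is mt-Co1, and with APTK medium not every single gene followed, as given below. The ratio also carries changes of the nuclear sum. Within each library the 7 mitochondrial genes had 0.207 to 0.321 of the counts of the 76 nuclear subunit genes with APTKA medium, 0.395 to 0.496 with APTK medium and 0.339 to 0.381 in untreated fibroblasts. All 4 APTKA libraries lay below and all 4 APTK libraries above the untreated ones, and this ratio does not depend on how libraries are scaled. The mean ratio was 0.277 ± 0.0493 with APTKA medium, 0.452 ± 0.042 with APTK medium and 0.358 ± 0.0197 in untreated fibroblasts (SD, n = 4 each). Both media were set against the same untreated libraries, and changes of single genes are given as log2 fold changes throughout.

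As shares of the deposited counts, the mitochondrial members took 0.154 to 0.233% with APTKA medium, 0.285 to 0.33% with APTK medium and 0.20 to 0.245% in untreated fibroblasts. APTK libraries lay above both other groups, whereas APTKA and untreated libraries overlapped (log2 difference -0.14, and -0.30 with the scaled totals described below). The nuclear subunits took 0.725 to 0.743% with APTKA medium, 0.665 to 0.721% with APTK medium and 0.583 to 0.646% in untreated fibroblasts, and no 2 of these groups overlapped. That order of the nuclear sums depended on the scaling. With library totals scaled by TMM, the trimmed mean of M-values, the log2 difference of the nuclear sum was 0.091 between APTKA medium and untreated fibroblasts (unscaled 0.25) and -0.00075 between APTKA and APTK medium (unscaled 0.099). Such sums weigh highly expressed genes most. Between APTKA and APTK medium the highly expressed Atp5b had a log2 fold change of 0.52, while the median over the 76 genes was -0.094. The 12 assembly factors together took 0.0224 to 0.0243% with APTKA medium, 0.0189 to 0.0207% with APTK medium and 0.017 to 0.0187% in untreated fibroblasts. Those groups did not overlap, but with TMM-scaled totals APTK libraries overlapped both other groups. The log2 difference of the assembly factor sum was then 0.26 between APTKA medium and untreated fibroblasts (unscaled 0.42) and 0.15 between the media (unscaled 0.25).

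**Figure D2:**
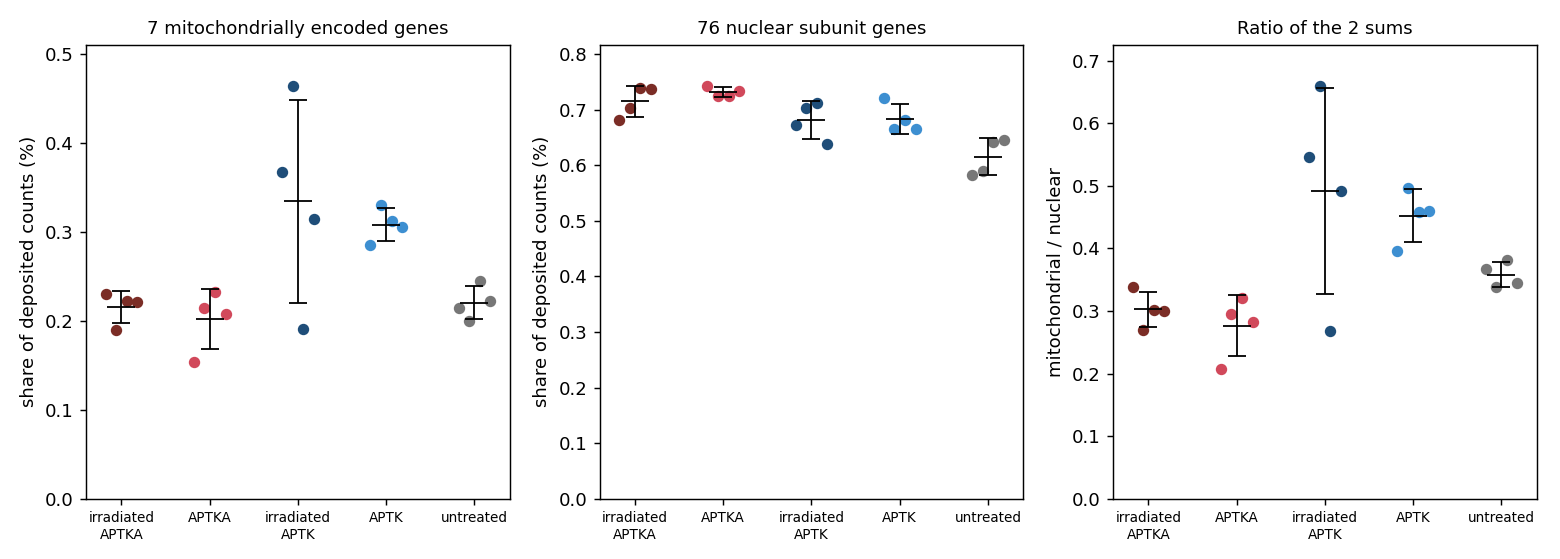
Shares of the deposited counts held by the 7 mitochondrial (left) and 76 nuclear subunit genes (middle), and the ratio of both sums (right), with 1 point per library, the mean as a dash and the SD as bars (n = 4). The ratio separates APTKA, APTK and untreated libraries, while irradiated APTK libraries spread from 0.268 to 0.659.

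The 4 mitochondrial genes that fell with APTKA medium relative to untreated fibroblasts were mt-Nd1, mt-Nd2, mt-Nd4 and mt-Cytb, and none of the 7 rose. mt-Cytb, the only complex III subunit made in mitochondria (chrM:14145-15288, plus strand, GENCODE annotation of GRCm38), stood at 65.1, 85.7, 79 and 91.4 CPM in APTKA libraries I to IV, against 162, 143, 125 and 137 CPM in untreated libraries I to IV. The groups did not overlap, and the log2 fold change was -0.82 ± 0.22 (SE; edgeR's quasi-likelihood test, adjusted p = 0.00382 over all genes tested). mt-Nd1, a membrane subunit of complex I, had 126, 148, 151 and 149 CPM with APTKA medium and 235, 209.9, 206 and 204 CPM in untreated fibroblasts. Every APTKA library was again below every untreated one (log2 fold change -0.58 ± 0.18, adjusted p = 0.00955). The other 2 genes called changed by -0.80 (mt-Nd2, edgeR adjusted p = 0.0059) and -0.79 (mt-Nd4, edgeR adjusted p = 0.00177). Values for the genes not called were -0.21 in mt-Co1, -0.33 in mt-Nd5 and -0.51 in mt-Nd6. The median over the 7 was -0.58, beside 0.0031 over all 14820 genes tested, of which 61.4% were called in either direction and 29.9% lower. A count of 4 of 7 is close to the share called in either direction.

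With APTK medium, mt-Nd5 alone of the 7 rose against untreated fibroblasts and none fell. It had 97.4, 95.9, 85.1 and 84.2 CPM in APTK libraries I to IV, against 60.9, 55.6, 52.8 and 52.1 CPM in untreated libraries I to IV. The APTK libraries were all higher, with a log2 fold change of 0.71 ± 0.25 (SE; edgeR adjusted p = 0.0325), but the call was lost when 1 of 5 libraries was left out in turn (untreated II, III or IV, APTK I or II; log2 fold change 0.68 to 0.71) or without the expression filter (adjusted p = 0.055). mt-Co1 had 2329.9, 2722, 2532 and 2572 CPM with APTK medium and 1721, 1597, 2111 and 1919 CPM in untreated fibroblasts. Here too the groups did not overlap, yet the difference missed the threshold (log2 fold change 0.47 ± 0.19, edgeR adjusted p = 0.054). mt-Nd2, mt-Nd4 and mt-Cytb had log2 fold changes of 0.010, -0.059 and 0.060. The median over the 7 was 0.26, beside 0.0029 over all genes tested, of which 43.4% were called and 20.9% higher.

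Set against APTK medium directly, APTKA medium gave lower levels of all 7 mitochondrial genes, and 6 of them passed the test. Their median log2 fold change was -0.84, beside -0.026 over all genes tested, of which 62.9% were called and 31.8% lower. mt-Nd5 had 34.5, 44.5, 45.8 and 52.1 CPM with APTKA medium, far from the 97.4, 95.9, 85.1 and 84.2 CPM with APTK medium (log2 fold change -1.04 ± 0.26, edgeR adjusted p = 0.00219). mt-Co1 had 1227, 1686, 1849.8 and 1587 CPM with APTKA medium, and every APTK library was higher (-0.68 ± 0.19, edgeR adjusted p = 0.00473). mt-Nd6, the one protein encoded on the other strand, had 3.76, 5.36, 4.74 and 5.29 CPM with APTKA medium and 16.5, 10.5, 8.22 and 7.55 CPM with APTK medium, and was not called (-1.17 ± 0.52, edgeR adjusted p = 0.0638). The 2 mitochondrial ribosomal RNAs, which are no members, together took 0.25 to 0.39% of the counts with APTKA medium, 0.457 to 0.59% with APTK medium and 0.314 to 0.456% in untreated fibroblasts.

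The changes of the nuclear subunits were small, and their counts differed from complex to complex. Per kilobase of transcript, averaged over all libraries, the highest were Atp5b (562 CPM per kb), Cox4i1 (376), Atp5a1 (311) and Cox6a1 (212), and the lowest Atp5g2 (1.59) and Atp5g1 (1.20). With APTKA medium, 24 of 76 rose and 13 fell relative to untreated fibroblasts (median log2 fold change 0.074). With APTK medium, 29 rose and 3 fell (median 0.17). Between APTKA and APTK medium, 12 were higher and 26 lower (median -0.094). With upper quartile scaling in place of TMM, 14 of the 91 nuclear members were higher and 43 lower between the media, against 17 and 31 with TMM (the lower ones include Ndufa4l2 and Cox6b2, described below). The subunits called made up 48.7% with APTKA medium, below the 61.4% of all genes, and 42.1% with APTK medium, near the 43.4% of all genes. Between the media 38 of 76 were called, below the 62.9% of all genes. No nuclear subunit changed more than 0.56 upwards or -0.82 downwards on the log2 scale in these 3 comparisons.

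Complex II was higher with APTKA medium than in both other groups, and complex III was higher with both media than in untreated fibroblasts. Of the 4 complex II subunits 3 rose and 0 fell relative to untreated fibroblasts (median 0.22), and of the 8 complex III subunits 6 rose and 0 fell (median 0.27), where 31.5% of all genes rose. With APTK medium 1 of 4 and 4 of 8 rose and none fell (medians 0.078 and 0.18), where 20.9% of all genes rose. Between the media, complex II had 3 of 4 higher and 0 lower with APTKA (median 0.17), and complex III 1 of 8 higher and 1 lower (median -0.045). Of all genes, 31.1% were higher and 31.8% lower in that comparison. Uqcrc1, a core protein of complex III, had 94.5, 82.7, 101 and 92.1 CPM in APTKA libraries I to IV, 68.7, 74.3, 69.3 and 74.8 CPM in APTK libraries and 61.5, 59.7, 67.3 and 69.8 CPM in untreated libraries. All APTKA libraries were above all others, and the log2 fold change was 0.52 ± 0.070 against untreated fibroblasts (SE; edgeR adjusted p = 3.32e-07) and 0.37 ± 0.070 against APTK medium (edgeR adjusted p = 5.10e-05). Sdhb, the iron-sulfur subunit of complex II, had 110.5, 96.5, 101 and 103 CPM with APTKA medium, 90.2, 81.7, 87.6 and 84.5 CPM with APTK medium and 78.5, 79, 88 and 93.6 CPM in untreated fibroblasts. It was higher in every APTKA library than in either other group (log2 fold change 0.28 ± 0.059, adjusted p = 0.000192 against untreated fibroblasts by edgeR). Sdhd, a membrane anchor of complex II, rose by 0.39 and Sdha, its flavoprotein, by 0.17, while Sdhc was not called (0.096). The complex III Rieske protein Uqcrfs1 rose by 0.19 with APTKA medium and 0.34 with APTK medium.

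Complex IV was lower with APTKA than with APTK medium. Of its 11 nuclear subunits 0 were higher and 7 lower with APTKA than with APTK medium (median -0.22), where 31.8% of all genes were lower. With APTK medium 6 rose (54.5%) and 0 fell relative to untreated fibroblasts, beside 20.9% and 22.5% of all genes. With APTKA medium 1 rose (9.09%) and 3 fell (27.3%), beside 31.5% and 29.9% of all genes. The share that fell with APTKA medium is thus near that of all genes. Cox4i1, a nuclear subunit that regulates the enzyme, had 244, 247, 218 and 238 CPM with APTKA medium, 346, 314, 321 and 307 CPM with APTK medium and 276, 283, 309.9 and 314 CPM in untreated fibroblasts. The APTKA libraries were below both other groups, while APTK and untreated libraries overlapped. Of its exon sequence, 9.94% overlaps Emc8 on the opposite strand. The log2 fold change was -0.44 ± 0.059 between the media (SE; edgeR adjusted p = 2.54e-07). Cox7a2l, counted to complex IV here by its symbol, had 94.1, 81.5, 79.1 and 80.1 CPM with APTKA medium, 158, 139, 153 and 144 CPM with APTK medium and 113, 112, 129 and 124 CPM in untreated fibroblasts. The 3 groups did not overlap, with APTK libraries highest. Of its 50-base stretches, 13.8% also occur in Gm6969. Its log2 fold change of -0.82 ± 0.063 between the media was the largest fall among the nuclear subunits (edgeR adjusted p = 8.75e-12). It fell by 0.51 with APTKA medium and rose by 0.31 with APTK medium, both against untreated fibroblasts. Cox5a was not called in these 3 comparisons.

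In complex I, 11 of 37 nuclear subunits rose and 7 fell with APTKA medium, and 13 rose and 1 fell with APTK medium, each against untreated fibroblasts. The shares that rose, 29.7% with APTKA and 35.1% with APTK medium, compare with 31.5% and 20.9% of all genes, so the first is near that of all genes. The shares that fell, 18.9% with APTKA and 2.70% with APTK medium, were below the 29.9% and 22.5% of all genes. Between the media 7 were higher (18.9%) and 13 lower (35.1%) with APTKA, beside 31.1% and 31.8% of all genes. The share lower is near that of all genes. Ndufa12, an accessory subunit, rose most with APTKA medium against untreated fibroblasts (0.56 ± 0.11, adjusted p = 5.66e-05 by edgeR). Ndufab1, which also serves as the mitochondrial acyl carrier protein, rose by 0.53. In the same comparison Ndufb5 fell by 0.40 and Ndufa1 by 0.42. Ndufv3, a subunit next to the NADH-binding site, had 56.7, 53.1, 56.8 and 55.1 CPM with APTKA medium, 87.7, 80.4, 84 and 80.4 CPM with APTK medium and 58.7, 58.9, 66.2 and 65.6 CPM in untreated fibroblasts. All APTK libraries were above both other groups, and the log2 fold change between the media was -0.59 ± 0.053 (SE; edgeR adjusted p = 2.84e-10). The largest rises of complex I subunits with APTK medium included Ndufb3 (0.46). Of the catalytic core, Ndufs1 rose by 0.18 with APTKA medium, while Ndufv1 (-0.025) was not called.

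In complex V, 3 of 16 nuclear subunits rose and 3 fell with APTKA medium against untreated fibroblasts (18.75% each, beside 31.5% and 29.9% of all genes). With APTK medium 5 rose (31.25%) and 2 fell (12.5%), beside 20.9% and 22.5%. Between the media 1 was higher (6.25%) and 5 lower (31.25%) with APTKA, beside 31.1% and 31.8%. The share lower is near that of all genes. Within complex V the subunits of the catalytic head diverged. Atp5b, the catalytic beta subunit, had 1319, 1239, 1245 and 1223 CPM with APTKA medium, 883, 880.5, 851 and 893 CPM with APTK medium and 943, 929.9, 1017 and 1091 CPM in untreated fibroblasts. The 3 groups did not overlap, with APTKA libraries highest and APTK libraries lowest. The log2 fold change was 0.52 ± 0.057 between the media (SE; edgeR adjusted p = 8.30e-09) and -0.18 ± 0.057 for APTK medium against untreated fibroblasts (edgeR adjusted p = 0.0102). The fall with APTK medium lost its call without untreated IV. The gamma subunit Atp5c1 and the epsilon subunit Atp5e, which form the rotating stalk, changed the other way between the media (-0.50 and -0.50). Atp5a1, the alpha subunit, was not called between the media (0.090). Atp5g1, 1 of 3 genes for the same mature c-ring protein, fell by 0.59 with APTKA medium. Its level was low (4.92 ± 0.475 CPM with APTKA medium and 7.44 ± 0.294 CPM in untreated fibroblasts, SD, n = 4 each), and 11.1% of its 50-base stretches occurred in another gene, as did 38.3% of those of Atp5g2. In all, 23 of the 98 members shared over 10% of their stretches and 4 over 50% (mt-Co1, mt-Nd4, Ndufaf2 and Sdhaf1). Exons of 40 overlapped another gene, 34 of them on the opposite strand.

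**Figure D3:**
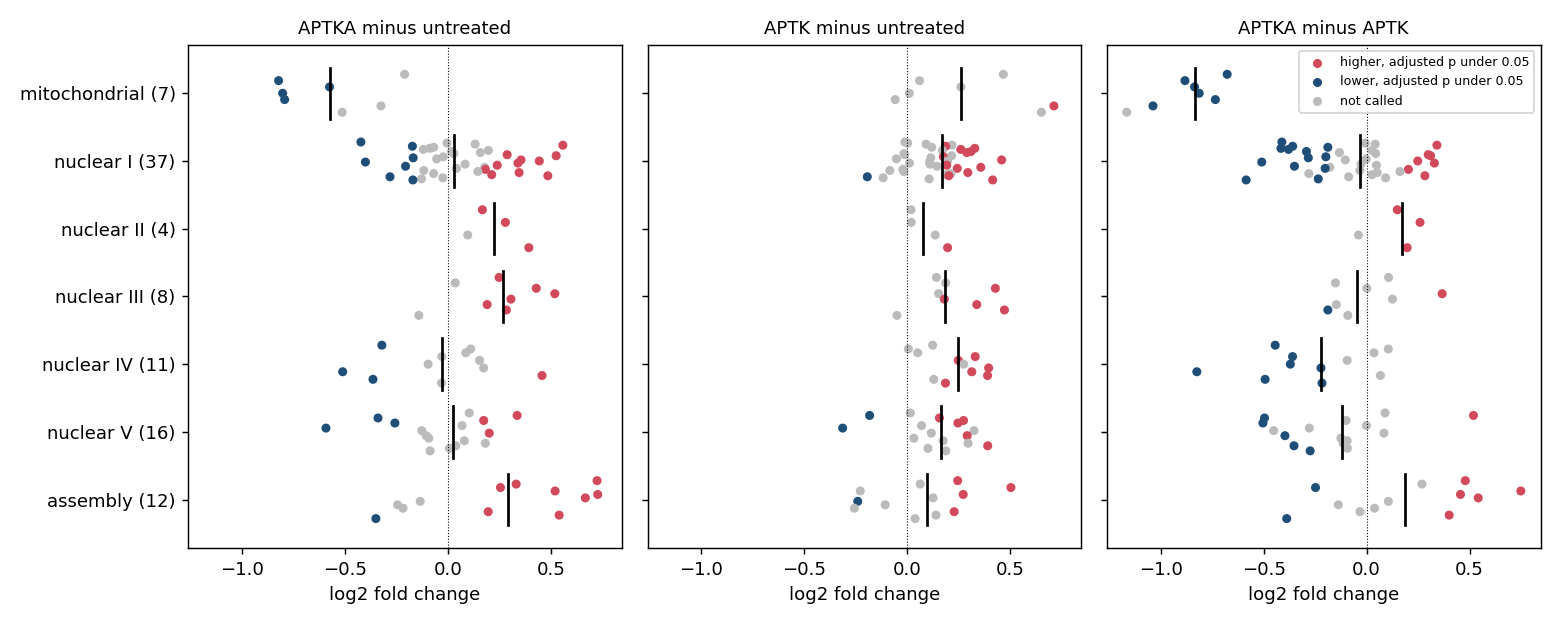
Log2 fold changes of the mitochondrial members, the nuclear subunits by complex and the assembly factors in 3 comparisons, with 1 point per gene, coloured by the edgeR call, and the median as a bar. The mitochondrial genes lie at a median of -0.58 with APTKA medium and 0.26 with APTK medium. Against untreated fibroblasts, all complex II genes lie above 0 with both media and all nuclear complex IV genes with APTK medium. Complex I has genes on both sides of 0 in each comparison.

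Most assembly factors of complexes I and II rose with APTKA medium. Of the 12, 8 rose and 1 fell (median 0.29), against 4 and 1 with APTK medium (median 0.094), each relative to untreated fibroblasts. The shares that rose were 66.7% with APTKA and 33.3% with APTK medium, beside 31.5% and 20.9% of all genes. Ndufaf1, which helps build the membrane arm of complex I, had 31.4, 30.3, 27.3 and 29.4 CPM with APTKA medium, 23.3, 20.1, 22 and 19.6 CPM with APTK medium and 16.9, 17.1, 19.2 and 18.5 CPM in untreated fibroblasts. The 3 groups did not overlap, and the log2 fold change with APTKA medium was 0.72 ± 0.075 (SE; edgeR adjusted p = 2.75e-09). Ndufaf5, which modifies the subunit Ndufs7, rose by 0.73 and Ndufaf6, an early factor of complex I, by 0.67. Ndufaf4, which acts with Ndufaf3, had 23.9, 26.2, 24.7 and 26.7 CPM with APTKA medium, 16, 15, 15.5 and 13.8 CPM with APTK medium and 19.2, 18, 19 and 14.5 CPM in untreated fibroblasts. The APTKA libraries were above both other groups, while APTK and untreated libraries overlapped. Between the media its log2 fold change was 0.75 ± 0.096 (SE; edgeR adjusted p = 1.22e-07), the largest rise of any nuclear member in that comparison. Sdhaf3, which helps mature Sdhb, rose by 0.54 with APTKA medium, whereas Sdhaf4 fell by 0.35. With APTK medium the largest rise was Ndufaf3 (0.50) and the only fall Ndufaf7 (-0.24).

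Promoter windows of 300 bases from RefSeq (250 before the start of a gene and 50 after it, build GRCm38.p6) were found for 74 of the 91 nuclear members and searched on both strands. Nuclear respiratory factor 1 is a known activator of respiratory chain genes. Its core GCGCATGC was found in 11 of these 74 members (14.9%), against 822 of all 26995 genes with a window (3.04%). A gene counted once if any of its windows matched. The 2 core sequences of hypoxia response elements, ACGTG and GCGTG, were found in 48 of 74 members (64.9%), against 12608 of 26995 genes (46.7%). They were also found in 24 of 30 genes of mitochondrial DNA expression (80%) and 15 of 16 of the hypoxia list (93.75%), lists described below. Stretches of 5 windows that hold no annotated exon are shown, 5′ to 3′ on the gene's strand, with matches in capitals. The first pair are Ndufaf4 (chr4:24897833-24898082, plus strand) and Cox6a1 (chr5:115348982-115349129, minus strand), in which the nuclear respiratory factor core is matched on both strands by overlapping letters. Polrmt (chr10:79746582-79746831, minus strand), for the mitochondrial RNA polymerase described below, holds 1 such core and then 1 hypoxia core. The last pair are stretches from the windows of the alternative and common forms of a complex IV subunit. In its stretch, Cox6b2 (chr7:4753095-4753225, minus strand) has no match of either kind, and Cox6b1 (chr7:30626152-30626364, minus strand) has 2 hypoxia cores. The rest of their windows is not shown. A match is a run of letters, not a shown binding site.
Ndufaf4: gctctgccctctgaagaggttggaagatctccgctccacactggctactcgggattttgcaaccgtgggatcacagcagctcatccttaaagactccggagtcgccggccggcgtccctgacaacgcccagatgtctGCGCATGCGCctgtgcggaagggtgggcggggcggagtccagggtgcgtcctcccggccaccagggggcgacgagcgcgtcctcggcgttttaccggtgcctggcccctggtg
Cox6a1: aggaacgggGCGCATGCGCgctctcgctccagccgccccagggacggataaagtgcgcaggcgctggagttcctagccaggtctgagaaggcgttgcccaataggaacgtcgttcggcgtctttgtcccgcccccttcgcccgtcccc
Polrmt: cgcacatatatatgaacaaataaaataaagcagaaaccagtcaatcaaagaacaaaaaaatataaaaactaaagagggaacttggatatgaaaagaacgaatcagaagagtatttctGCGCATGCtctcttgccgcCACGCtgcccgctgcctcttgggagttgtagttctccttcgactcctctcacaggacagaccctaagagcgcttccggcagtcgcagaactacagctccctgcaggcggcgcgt
Cox6b2: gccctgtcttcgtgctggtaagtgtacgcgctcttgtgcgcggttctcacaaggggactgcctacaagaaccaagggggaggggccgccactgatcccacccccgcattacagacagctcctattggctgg
Cox6b1: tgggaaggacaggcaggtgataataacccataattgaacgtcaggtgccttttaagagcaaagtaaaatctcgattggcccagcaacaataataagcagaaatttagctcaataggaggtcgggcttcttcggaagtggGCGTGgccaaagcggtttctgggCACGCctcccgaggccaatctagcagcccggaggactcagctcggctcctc

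The 3 alternative isoforms were at low levels. Over the 12 libraries without APTK medium, Cox6b2 averaged 0.60 CPM and Ndufa4l2 0.722 CPM, so both passed the threshold of 1 CPM through the APTK groups alone and had to differ there. Their differences from the APTK groups are therefore descriptions, given without a test. Ndufa4l2 (chr10:127514967-127517154, plus strand), a form of Ndufa4 that is induced by low oxygen and known to restrain complex I, had 0.538, 0.665, 0.696 and 0.47 CPM in APTKA libraries I to IV, 3.22, 3.44, 3.11 and 4.41 CPM in APTK libraries and 0.999, 0.733, 0.937 and 1.08 CPM in untreated libraries. APTK libraries were well above the others, and all APTKA libraries lay below the untreated ones. The log2 fold change was 1.90 ± 0.20 for APTK medium against untreated fibroblasts (SE) and -2.57 ± 0.21 for APTKA against APTK medium. The fall with APTKA medium against untreated fibroblasts (-0.67 ± 0.26, edgeR adjusted p = 0.0278) was no longer called when untreated I or IV or APTKA I or IV was left out (log2 fold change -0.64 to -0.58). Per base of transcript, Ndufa4l2 reached 0.486 ± 0.108% of the level of Ndufa4 with APTKA medium, 2.26 ± 0.52% with APTK medium and 0.704 ± 0.118% in untreated fibroblasts (SD, n = 4 each). Ndufa4, which carries a complex I name but is now counted to complex IV, rose by 0.26 with APTK medium, a call lost without untreated I or APTK I.

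Cox6b2 (chr7:4751792-4753094, minus strand), the testis form of a complex IV subunit, was also highest with APTK medium. It had 0.571, 0.49, 1.04 and 0.549 CPM with APTKA medium, 2.76, 1.76, 1.97 and 1.82 CPM with APTK medium and 0.599, 0.56, 0.546 and 0.709 CPM in untreated fibroblasts. All APTK libraries were above all others, whereas APTKA and untreated libraries overlapped. The log2 fold change with APTK medium was 1.77 ± 0.25 (SE), and its common partner Cox6b1 rose by 0.25. Cox6a2, the heart and muscle form of another complex IV subunit, was lower in both media. It had 0.84, 0.77, 0.87 and 0.745 CPM with APTKA medium, 2.07, 1.53, 1.94 and 2.16 CPM with APTK medium and 2.56, 2.5, 3.08 and 3.36 CPM in untreated fibroblasts, and the 3 groups did not overlap. Its log2 fold change was -1.83 ± 0.19 with APTKA medium (SE; edgeR adjusted p = 2.44e-09) and -0.58 ± 0.17 with APTK medium (edgeR adjusted p = 0.00526). Per base of transcript it reached 0.628 ± 0.0216% of the level of Cox6a1 with APTKA medium, 1.17 ± 0.187% with APTK medium and 2.19 ± 0.217% in untreated fibroblasts (SD, n = 4 each). Of its exon sequence, 10.3% overlaps Itgad on the opposite strand. Below the threshold, the lung and hypoxia isoform Cox4i2 averaged 0.0525 ± 0.0431 CPM with APTKA medium, 0.36 ± 0.0664 CPM with APTK medium and 0.0305 ± 0.0204 CPM in untreated fibroblasts (SD, n = 4 each).

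**Figure D4:**
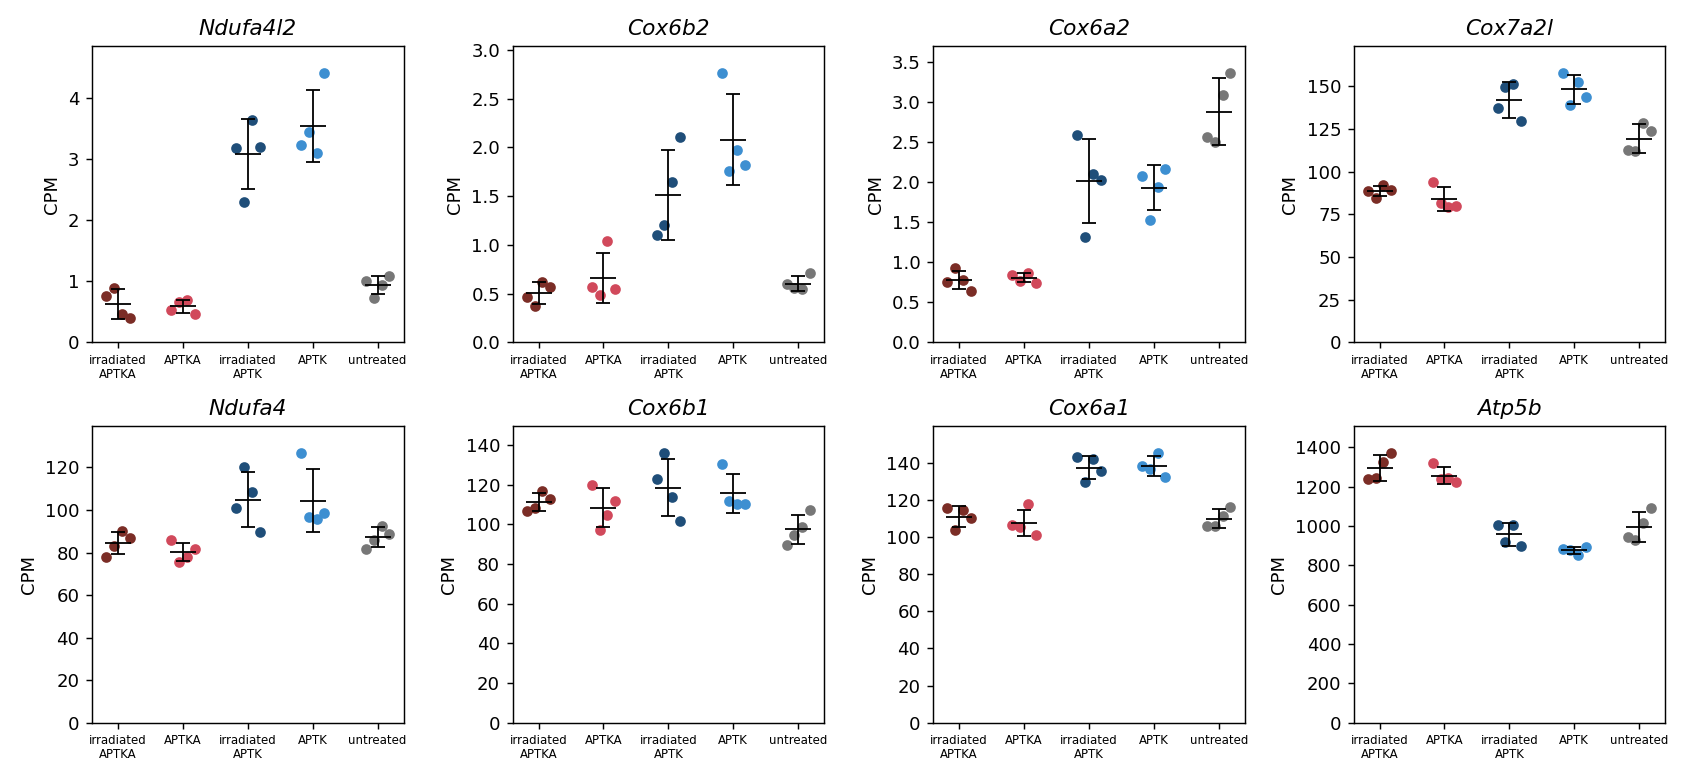
CPM with TMM-scaled totals in each library (points, 4 per group), with mean and SD, for 3 alternative isoforms and Cox7a2l (top) and for the common partners Ndufa4, Cox6b1 and Cox6a1 and the ATP synthase subunit Atp5b (bottom). Ndufa4l2 and Cox6b2 are high in both APTK groups, Cox6a2 is highest in untreated fibroblasts, and Atp5b is highest in both APTKA groups.

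Genes that copy, transcribe and process mitochondrial DNA were counted beside all genes. Of 32 tested, 13 rose and 4 fell with APTKA medium, 4 rose and 5 fell with APTK medium, each against untreated fibroblasts, and 18 were higher and 3 lower with APTKA than with APTK medium (medians 0.19, -0.063 and 0.35). With APTKA medium 40.6% rose and 12.5% fell, beside 31.5% and 29.9% of all genes. With APTK medium 12.5% rose and 15.6% fell, both below the 20.9% and 22.5% of all genes. Between the media 56.2% were higher, beside 31.1% of all genes. Polrmt, the mitochondrial RNA polymerase, averaged 38.9 ± 3.0 CPM with APTKA medium, 25 ± 1.05 CPM with APTK medium and 26 ± 1.2 CPM in untreated fibroblasts (SD, n = 4 each). It rose by 0.58 with APTKA medium. Tefm, the elongation factor of that polymerase, rose by 0.69, Trmt10c, a part of the enzyme that frees transfer RNAs from the precursors, by 0.83, and Mterf4, needed for the mitochondrial ribosome, by 0.90. Tfam, which packages the genome and starts its transcription, fell by 0.26. With APTK medium, Lrpprc, which stabilises mitochondrial messages, fell by 0.63 and Fastkd2, an RNA-binding factor of the organelle, by 0.58, whereas Primpol, a primase of DNA repair, rose by 0.56. Mgme1, a nuclease of mitochondrial DNA, was higher with APTKA than with APTK medium (0.67).

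Assembly factors and electron carriers with other names formed a further list. Of 57 tested, 26 rose and 4 fell with APTKA medium, 13 rose and 9 fell with APTK medium, and 28 were higher and 9 lower with APTKA than with APTK medium. With APTKA medium 45.6% rose and 7.02% fell, beside 31.5% and 29.9% of all genes, and with APTK medium 22.8% rose, near the 20.9% of all genes. Tmem70, a factor of ATP synthase assembly, averaged 131 ± 8.15 CPM with APTKA medium, 71.5 ± 3.03 CPM with APTK medium and 56.4 ± 3.35 CPM in untreated fibroblasts (SD, n = 4 each; log2 fold change with APTKA medium 1.22 ± 0.057, adjusted p = 2.53e-16 by edgeR). Cox10, which makes a heme of complex IV, rose by 0.72 and Lyrm7, which helps insert the Rieske protein, by 0.72. Coa7, an assembly factor of complex IV, fell by 0.71 with APTK medium, and Cox17, a copper chaperone, rose by 0.46. Of 16 regulators of the chain, 10 rose and 2 fell with APTKA medium, and 2 rose and 4 fell with APTK medium. Their shares that rose were 62.5% and 12.5%, beside 31.5% and 20.9% of all genes. Sirt1, a deacetylase, and Myc, a growth regulator, were higher with APTKA than with APTK medium (0.98 and 0.75), Epas1, a hypoxia-inducible factor, rose by 0.56 with APTK medium, and Ppara, a receptor for fatty acids, fell by 1.11 with APTKA medium. Atpif1, the inhibitor of ATP synthase, was not called in any of the 3 comparisons (0.055 with APTKA medium, 0.21 with APTK medium and -0.15 between them).

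Most genes of a hypoxia list rose with APTK medium. Besides genes that act on mitochondria, the list holds general hypoxia genes such as Vegfa, Car9 and Slc2a1. Of 18 tested, 15 rose and 1 fell with APTK medium (median 0.67), and 8 rose and 6 fell with APTKA medium (median 0.083). Between the media, 1 was higher and 12 lower with APTKA. The 15 and the 12 include Ndufa4l2, which had to differ with APTK medium. With APTK medium 83.3% rose, beside 20.9% of all genes. With APTKA medium 44.4% rose and 33.3% fell, beside 31.5% and 29.9% of all genes, and between the media 66.7% were lower, beside 31.8% of all genes. Pdk1, which shuts pyruvate out of the mitochondrial cycle, averaged 37.4 ± 1.96 CPM with APTKA medium, 77.3 ± 1.94 CPM with APTK medium and 36.4 ± 0.904 CPM in untreated fibroblasts (SD, n = 4 each). It rose by 1.09 with APTK medium and was not called with APTKA medium (0.040). Slc16a3, a lactate exporter, rose by 2.59 with APTKA and 3.16 with APTK medium, Mgarp, a protein of mitochondrial transport, by 2.26 and 2.86, and Bnip3, a receptor for the removal of mitochondria, by 1.42 and 2.03. Egln3, an oxygen-sensing hydroxylase, was the 1 gene of the list that was higher with APTKA than with APTK medium (1.32). Of 19 tricarboxylic acid cycle genes, 11 rose and 3 fell with APTKA medium, and 5 rose and 3 fell with APTK medium (57.9% and 26.3% rose, beside 31.5% and 20.9% of all genes). Dlst and Ogdh, parts of the 2-oxoglutarate dehydrogenase, rose by 0.79 and 0.57 with APTKA medium, and Idh2 rose by 0.39 with APTK medium. Of 28 genes taken as markers of mitochondrial mass, 11 rose and 8 fell with APTKA medium, and 5 rose and 9 fell with APTK medium. The shares of 39.3% higher and 28.6% lower with APTKA medium stand beside 31.5% and 29.9% of all genes, and with APTK medium 17.9% and 32.1% compare with 20.9% and 22.5%. Among these, Timm50, an import receptor, rose by 0.78 with APTKA medium, whereas Tomm20, another, fell by 0.64 and the chaperone Hspa9 by 0.94.

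**Figure D5:**
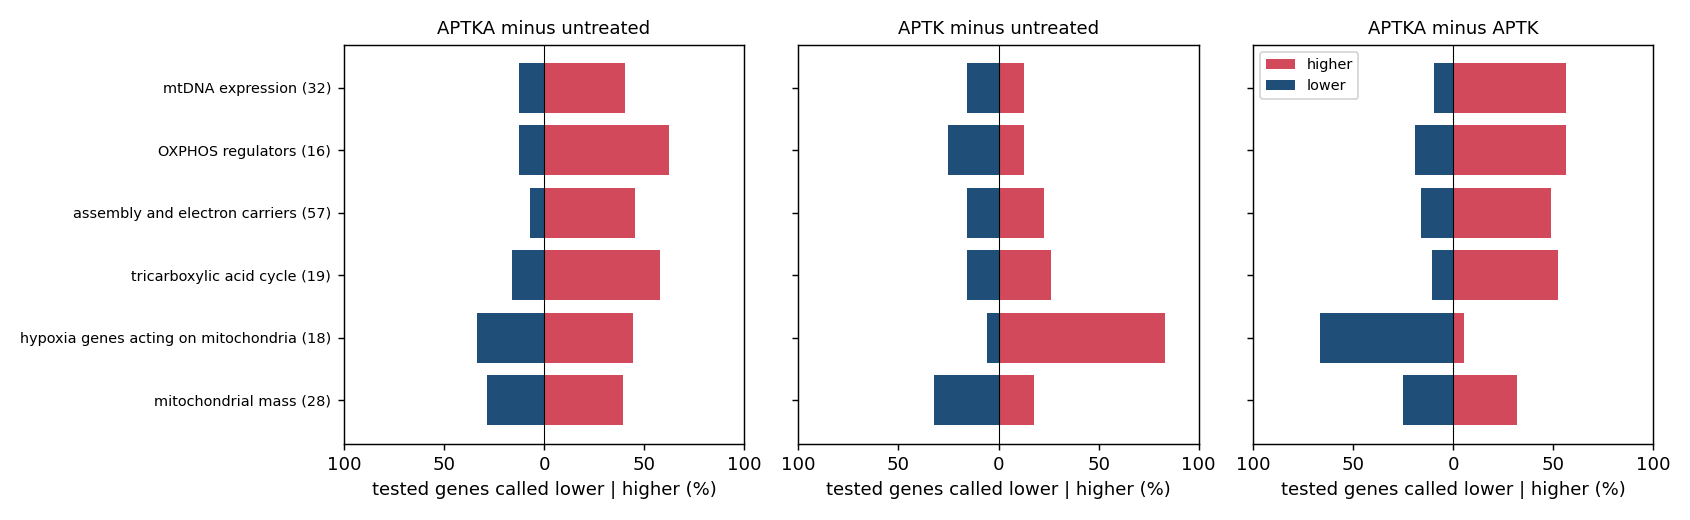
Percentage of the tested genes of 6 lists (number tested in parentheses) that edgeR called higher (right of 0) or lower (left of 0) in 3 comparisons. The list of hypoxia genes has 15 of 18 higher with APTK medium and 12 of 18 lower with APTKA than with APTK medium, and the list of mitochondrial DNA expression has 18 of 32 higher in that last comparison.

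No member passed the threshold with irradiation in either medium. By edgeR 0 of 98 were called with irradiated APTKA against APTKA medium and 0 of 98 with irradiated APTK against APTK medium, where 0.729% and 1.38% of all genes were called (0.547% higher and 0.837% lower with irradiated APTK medium). At an unadjusted p under 0.05 there were 2 and 10 members, and DESeq2 called 0 in both. Without irradiated APTK I and II, edgeR also called 0 with irradiated APTK medium. Replicate pairs differed more there than with APTK medium (chi-square per degree of freedom 17.1 to 88.2, against 6.02 to 13.05). Leaving out irradiated APTK IV raised the calls among all genes from 81 higher and 124 lower to 692 and 578. Leaving out I, II or III gave 13 to 41 higher and 20 to 81 lower. The absence of calls there does not show that the members stayed unchanged. The difference between the irradiation effects had 0 members called by edgeR and by DESeq2 and 2 at an unadjusted p under 0.05, beside 0.182% of all genes called (0.121% higher and 0.0607% lower). The 2 members at an unadjusted p under 0.05 with irradiated APTKA medium were Ndufaf6 (-0.30 ± 0.11, edgeR adjusted p = 0.224) and Cox4i1 (0.13 ± 0.059, edgeR adjusted p = 0.358), and for the difference they were Uqcrfs1 and Atp5o.

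The mitochondrial genes of the irradiated APTK libraries varied far more than the nuclear ones. The 7 genes took 0.368% (I), 0.464% (II), 0.191% (III) and 0.314% (IV) of the counts, against 0.285 to 0.33% with APTK medium. Libraries I and II were above every APTK library and library III was below them. The median coefficient of variation between libraries was 36.1% over the mitochondrial genes with irradiated APTK and 7.15% with APTK medium, beside 10.6% and 6.39% over the nuclear subunits. mt-Nd6 had 22.1, 54.5, 5.75 and 14.4 CPM in irradiated APTK libraries I to IV, against 16.5, 10.5, 8.22 and 7.55 CPM in APTK libraries, and was not called (1.14 ± 0.47, edgeR adjusted p = 0.263). mt-Nd2 and mt-Nd4 were also not called (0.66 and 0.40), but both passed without irradiated APTK III (0.87, edgeR adjusted p = 0.021, and 0.62, edgeR adjusted p = 0.0077).

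Between the irradiated media, the mitochondrial genes were called lower with APTKA, but 1 irradiated APTK library did not share this order. Their counts were 0.27 to 0.339 of those of the nuclear subunits with irradiated APTKA medium and 0.268 to 0.659 with irradiated APTK medium, where library III lay below every irradiated APTKA library and the other 3 above all of them. All 7 were called lower with irradiated APTKA than with irradiated APTK medium (median -1.0, beside -0.031 over all genes tested, of which 61.3% were called, 30.1% higher and 31.2% lower), although in 4 of them the groups overlapped. Without irradiated APTK I and II, 5 of 7 were called, and mt-Co1 (-0.22, edgeR adjusted p = 0.328) and mt-Cytb (-0.33, edgeR adjusted p = 0.199) were not. Those 2 libraries had the highest mitochondrial shares of their group, and library III, with the lowest, was kept. Of the 91 nuclear members 12 were higher and 26 lower, 15 and 22 without those 2 libraries, and 7 and 38 with upper quartile scaling. The 26 lower include Ndufa4l2 and Cox6b2, which had to differ there. Ndufa4l2 had 0.756, 0.897, 0.465 and 0.394 CPM with irradiated APTKA medium and 3.19, 2.29, 3.65 and 3.2 CPM with irradiated APTK medium. The groups did not overlap, with a log2 fold change of -2.28 ± 0.21 (SE), and that of Cox6b2 was -1.62 ± 0.26. No test is given for these 2, since both passed the threshold through the APTK groups. Cox6a2 (-1.37), Cox7a2l (-0.68) and Atp5c1 (-0.53) were also lower, and Ndufaf4 (0.66), Ndufaf1 (0.51), Atp5b (0.44) and Uqcrc1 (0.29) higher, with irradiated APTKA medium.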

How the data were processed

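RNA-seq was measured in 20 libraries of 5 groups. The authors deposited whole-number counts per gene, not normalised. Per the submitters' processing notes, reads were handled with featureCounts 1.5.0-p1, STAR 2.5.2a and bcl2fastq 2.20.0.422 on build mm10. How multiply matching reads and strand were counted, and with which annotation release, is not given in the sources used here. Identifiers were matched to GENCODE symbols (47224 matched, 505 not).

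The test was edgeR's quasi-likelihood F-test (edgeR 4.0.16, R 4.3.3) on TMM-scaled counts, after the default expression filter left 14820 genes. A single fit covered the 20 libraries and left 15 residual degrees of freedom. Benjamini-Hochberg adjustment ran across all 14820, and calls were made at a false discovery rate of 5%. CPM values were computed here with TMM-scaled totals, except for the threshold of 1 CPM and the shares. DESeq2 1.42.0 was an alternative. The fit was tested on simulated counts. Chi-square tests of replicate pairs gave 4.79 to 88.2 per degree of freedom, so none looked like 1 library deposited more than once.

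The members, gene lists and rules were chosen with earlier results of these data known. The rule named the 13 mitochondrial genes, 10 core subunits, the isoform pairs, in each comparison the 5 largest rises and 5 largest falls among called nuclear members whose groups did not overlap, up to 3 called genes per list, and genes near the threshold. Atp5e, Atp5o, Cox6b1, Ndufab1, Ndufb5, Polrmt, Sdhaf4, Sdhc, Sdhd and Tfam were outside it and chosen after their values were seen. Of the core subunits, 1 is not reported here. Its part on genes correlated with the mitochondrial sum was not used, since the libraries fall into separate groups. Other alternatives were upper quartile scaling, no filter, TMM without the members, a replicate block, only the groups compared, and leaving out each library. Leaving out irradiated APTK I and II together was chosen after seeing the data. Amino acid sequences were not used here.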

Additional observations from a re-analysis of the deposited data

Results flagged for a closer look

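In 125 sets of 4 libraries (22 genes and 3 sums), 8 had 1 library far from the other 3 by Dixon's criterion, which chance meets in about 1 of 20 sets. Uqcrc1 was highest in irradiated APTKA III at 94 CPM, with 88 to 88.9 CPM in the other 3. mt-Nd1 was lowest in APTKA I at 126 CPM, with 148 to 151 CPM in the other 3. Cox6b2 was highest in APTKA III at 1.04 CPM, with 0.49 to 0.571 CPM in the other 3. Cox7a2l was highest in APTKA I at 94.1 CPM, with 79.1 to 81.5 CPM in the other 3. Ndufaf4 was highest in irradiated APTK II at 18.9 CPM, with 13.2 to 13.6 CPM in the other 3. mt-Nd4 was lowest in APTK III at 26.5 CPM, with 29.2 to 29.7 CPM in the other 3. Ndufa4 was highest in APTK I at 127 CPM, with 95.5 to 98.8 CPM in the other 3. Cox6b1 was highest in APTK I at 130.5 CPM, with 110.1 to 112 CPM in the other 3. Libraries irradiated APTK I, II and III, which spread widely in mitochondrial counts, were not marked by that criterion in the sum of the 7 mitochondrial genes.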

How the results depend on the processing

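No result changed direction past the threshold under the alternatives run. Genes of the mitochondrial genome called higher with APTK medium against untreated fibroblasts numbered 1 and became 2 with upper quartile scaling, 0 without the expression filter, 2 with DESeq2, 3 with only those groups fitted, and 0 to 1 with a library left out. Nuclear members lower in that comparison numbered 5 and became 3 with upper quartile scaling or structural subunits only. With a library left out they numbered 3 to 5. The 35 nuclear members higher ranged from 23 (without APTK I) to 39. The 35 include Ndufa4l2 and Cox6b2, which had to differ there. With irradiated APTK against APTK medium the 0 nuclear members lower became 2 without the filter, and leaving out a library gave 0 to 2 mitochondrial (2 without irradiated APTK III) and 0 to 2 nuclear members higher (2 without irradiated APTK IV). With irradiated APTKA against irradiated APTK medium the 12 nuclear members higher became 7 with upper quartile scaling, 21 without the filter, 7 for structural subunits only, and 10 to 16 with a library left out. Log2 differences of the nuclear subunit sum with TMM-scaled totals, against unscaled shares, were 0.0914 against 0.25 (APTKA and untreated), -0.00075 against 0.0993 (APTKA and APTK), 0.0279 against -0.033 (irradiated APTKA and APTKA) and -0.00077 against 0.07 (irradiated APTKA and irradiated APTK). The cause was not tested. Upper quartile scaling moved the median of all genes between APTKA and APTK medium to -0.097. Of the values of named genes that were called, 24 lost the call under other settings and 46 with a library left out, and none changed sign past the threshold.

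Replicate numbers did not pair the libraries: over 40 same-numbered pairs the correlations of deviations ran from -0.108 to 0.0959, and 0 exceeded 0.1. With the replicate number as a block, 33 nuclear members were higher and 16 lower with APTKA medium against untreated fibroblasts, and no count moved by over 1.5 times.

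Members of 1 to 2 CPM rest on few counts. The labels do not say how reads matching several places were counted, which limits the mitochondrial genes most.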

Other observations

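Some prefix genes under the threshold are known as tissue isoforms. Cox7a1, the heart and muscle form of Cox7a2, averaged 0.235 ± 0.0579 CPM with APTKA medium, 0.587 ± 0.128 CPM with APTK medium and 0.389 ± 0.0838 CPM in untreated fibroblasts (SD, n = 4 each). Cox8b, the muscle form of Cox8a, was at or near 0, with at most 0.0731 CPM in any library. Atp5l, a subunit of the ATP synthase membrane part, averaged 0.212 ± 0.071 CPM with APTKA medium, 0.232 ± 0.0655 CPM with APTK medium and 0.198 ± 0.0909 CPM in untreated fibroblasts (SD, n = 4 each). No test was made on these genes here.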
